A study of Homo sapiens with 16 samples.

Results

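The anaphase-promoting complex (APC/C) and its partners are described here through 10 genes among the 20271 in the deposited expression table, each found as the row whose gene symbol equals a listed name. They are the coactivators CDC20 and FZR1 (which encodes CDH1), the ubiquitin-conjugating (E2) enzymes UBE2C and UBE2S, the substrate PTTG1 (securin), the inhibitor FBXO5 (EMI1) and the core subunits ANAPC1, ANAPC5, ANAPC11 and CDC27 (APC3). The study silenced p53 and its binding partner iASPP, a protein known to restrain p53, in HCT116, a colon cancer cell line labelled as carrying wild-type p53. Of its 8 groups, 4 received siRNA for 3 days and no nutlin: a control (CTR siRNA), siRNA to iASPP, siRNA to p53, or siRNA to both (p53+iASPP siRNA). The other 4 received the same siRNAs and then nutlin (Nutlin-3) for 0.5 days more. Nutlin blocks MDM2, the ligase that keeps p53 low. Each group had 2 libraries, 16 in all, and the labels do not say whether replicates came from separate cultures, so p-values measure only the spread between these libraries, which may be technical.

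The APC/C is the ubiquitin ligase that ends mitosis. A scaffold of core subunits takes up 1 coactivator at a time: CDC20 works in metaphase and anaphase, when securin and cyclin B are destroyed, and CDH1 works from late mitosis through G1, when the remaining mitotic proteins and CDC20 itself are removed. UBE2C places the first ubiquitins on a substrate and UBE2S lengthens the chain, while EMI1 blocks the ligase between S phase and mitosis. Transcripts of many such regulators rise in G2 and mitosis, and active p53 is known to repress many late cell-cycle genes through p21 (CDKN1A) and the DREAM complex.

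Promoter sequence is shown for the members whose transcripts moved most with nutlin and for the coactivator FZR1, whose transcript did not pass the test, because 2 short elements are typical of late cell-cycle promoters: the cell cycle genes homology region (CHR, TTTGAA or TTCGAA) and the CCAAT box. Both strands were searched in the 250 bases before the RefSeq start (GRCh38.p14), and each match is in capitals, which shows TTCAAA or ATTGG where the match lies on the opposite strand. Adjacent CCAAT boxes on opposite strands overlap in the run CCAATTGG.
CDC20, chr1:43358731-43358980, plus strand: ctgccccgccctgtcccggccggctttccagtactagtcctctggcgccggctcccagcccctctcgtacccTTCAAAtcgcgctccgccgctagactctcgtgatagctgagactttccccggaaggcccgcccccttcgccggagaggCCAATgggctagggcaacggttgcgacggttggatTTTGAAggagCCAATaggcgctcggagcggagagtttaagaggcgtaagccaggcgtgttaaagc
FBXO5, chr6:152983042-152983291, minus strand: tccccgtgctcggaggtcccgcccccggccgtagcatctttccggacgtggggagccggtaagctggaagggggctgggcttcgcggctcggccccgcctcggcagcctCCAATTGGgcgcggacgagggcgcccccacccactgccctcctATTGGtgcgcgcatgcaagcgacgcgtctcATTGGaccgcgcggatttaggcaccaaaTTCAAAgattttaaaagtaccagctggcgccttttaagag
PTTG1, chr5:160421605-160421854, plus strand: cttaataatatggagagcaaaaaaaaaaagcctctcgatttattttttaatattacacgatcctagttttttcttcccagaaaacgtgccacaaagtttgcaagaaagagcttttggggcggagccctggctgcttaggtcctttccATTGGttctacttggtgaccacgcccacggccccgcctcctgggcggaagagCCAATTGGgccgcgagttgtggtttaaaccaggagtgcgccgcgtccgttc
UBE2S, chr19:55407789-55408038, minus strand: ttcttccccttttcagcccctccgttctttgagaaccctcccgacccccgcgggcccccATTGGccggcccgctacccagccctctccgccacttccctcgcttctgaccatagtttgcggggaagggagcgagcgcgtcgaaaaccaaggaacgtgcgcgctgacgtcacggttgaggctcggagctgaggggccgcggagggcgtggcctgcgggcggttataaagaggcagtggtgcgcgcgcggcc
FZR1, chr19:3506061-3506310, plus strand: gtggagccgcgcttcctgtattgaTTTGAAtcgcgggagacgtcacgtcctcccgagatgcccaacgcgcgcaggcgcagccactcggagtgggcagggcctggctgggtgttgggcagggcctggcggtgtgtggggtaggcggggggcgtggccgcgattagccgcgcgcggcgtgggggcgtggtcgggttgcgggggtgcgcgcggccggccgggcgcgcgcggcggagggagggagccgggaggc

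Promoter windows were found for 9 of the 10 members, 15 windows in all, and UBE2C had no entry. Over all 35116 windows of the same length, 13.3% held TTTGAA, 1.19% held TTCGAA and 32% held CCAAT, while 5.05% held a CHR match together with a CCAAT box. The CDC20 window held TTTGAA 65 bases before the start, and again on the opposite strand 178 bases before it, with CCAAT boxes at 55 and 100 bases. The first FBXO5 window held TTTGAA on the opposite strand 40 bases before the start and 4 CCAAT matches, and a second FBXO5 window held none of these letters. The PTTG1 window held 3 CCAAT matches and the UBE2S window 1, both without a CHR match. The first FZR1 window held TTTGAA 226 bases before the start and no CCAAT box. Among the core subunits the ANAPC1 window held none of the motifs, and ANAPC5, CDC27 and 3 of the 4 ANAPC11 windows held 1 CCAAT match each. These matches are letters in a window and were not tested as binding sites.

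Gene positions are those of GENCODE 29 on GRCh38. CDC20 (ENSG00000117399) lies on chromosome 1 from 43358955 to 43363203 on the plus strand, and FZR1 (ENSG00000105325) on chromosome 19 from 3506273 to 3538330 on the plus strand. UBE2C (ENSG00000175063) lies on chromosome 20 from 45812576 to 45816957, plus strand, and UBE2S (ENSG00000108106) on chromosome 19 from 55399745 to 55407777, minus strand. PTTG1 (ENSG00000164611) lies on chromosome 5 from 160421822 to 160428744, plus strand, and FBXO5 (ENSG00000112029) on chromosome 6 from 152970519 to 152983579, minus strand. The core subunits are ANAPC1 (ENSG00000153107, chromosome 2 from 111611639 to 111884690, minus strand), ANAPC5 (ENSG00000089053, chromosome 12 from 121308245 to 121399896, minus strand), ANAPC11 (ENSG00000141552, chromosome 17 from 81890790 to 81900991, plus strand) and CDC27 (ENSG00000004897, chromosome 17 from 47117703 to 47189422, minus strand). All are protein coding, and FPKM is given per gene, so the transcripts of a gene are not told apart. Whether reads were counted by strand is not given, so reads of overlapping genes may be shared. Among overlapping genes in the table, MFSD12 overlaps 70 of the 5802 exon bases of FZR1, and NPB, ALYREF and PCYT2 overlap 247, 62 and 27 of the 4027 of ANAPC11. A search of GENCODE 29 by symbol found 13 copies of members, and only PTTG2 was in the table, at 0 to 0.814 FPKM. Sequences were not compared, and copies under other names would be missed. Members with such copies, namely CDC20, UBE2C, UBE2S, PTTG1, ANAPC1 and CDC27, are uncertain to the extent that reads were split or multiply assigned.

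Values are FPKM as deposited, fragments scaled to transcript length and library size. Raw counts were not used. From the step size of low values, replicate 2 was estimated at 4.26 to 6.50 times the depth of replicate 1. Only ratios with replicate 2 clearly deeper were searched, so that direction was set in advance. Replicates were close in the 4 groups without nutlin and in CTR siRNA+nutlin, where the median absolute log2 difference over 799 genes at 100 FPKM or more was 0.0507 to 0.0699. In p53 siRNA+nutlin, iASPP siRNA+nutlin and p53+iASPP siRNA+nutlin it was 0.180 to 0.274, and replicate 2 of these 3 groups is called a diverging library below. The difference within a pair does not by itself show which replicate diverged. Leaving out the diverging libraries keeps 1 library in each of the 3 groups, so the spread within these groups is then not measured. The iASPP transcript PPP1R13L stood at 9.95 and 8.69 FPKM with CTR siRNA and at 0.541 and 0.279 with iASPP siRNA. CDKN1A, the p53 target that encodes p21, stood at 70.7 and 72.7 FPKM with CTR siRNA, at 1510 and 1577 with CTR siRNA+nutlin and at 47.4 and 107 with p53 siRNA+nutlin. Colon epithelial markers were present (5 of 8 at a mean of 1 FPKM or more), and of the fibroblast, leukocyte and endothelial markers 0 of 6, 1 of 6 and 0 of 4 reached that level.

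Differences are on the log2(FPKM + 1) scale, which understates changes of low genes, and are given as estimate ± standard error from limma with Benjamini-Hochberg adjustment over 10662 genes whose mean over the libraries was 1 FPKM or higher. All 10 members passed that filter. A gene is said to have risen or fallen where its adjusted p was under 0.05. One fit over all 16 libraries gives every group the same spread per gene, although the diverging pairs spread more. When each close pair was averaged to 1 library, none of the 37 member calls made below passed, so every call rests on reading the close pairs as 2 independent samples.

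**Figure D1:**
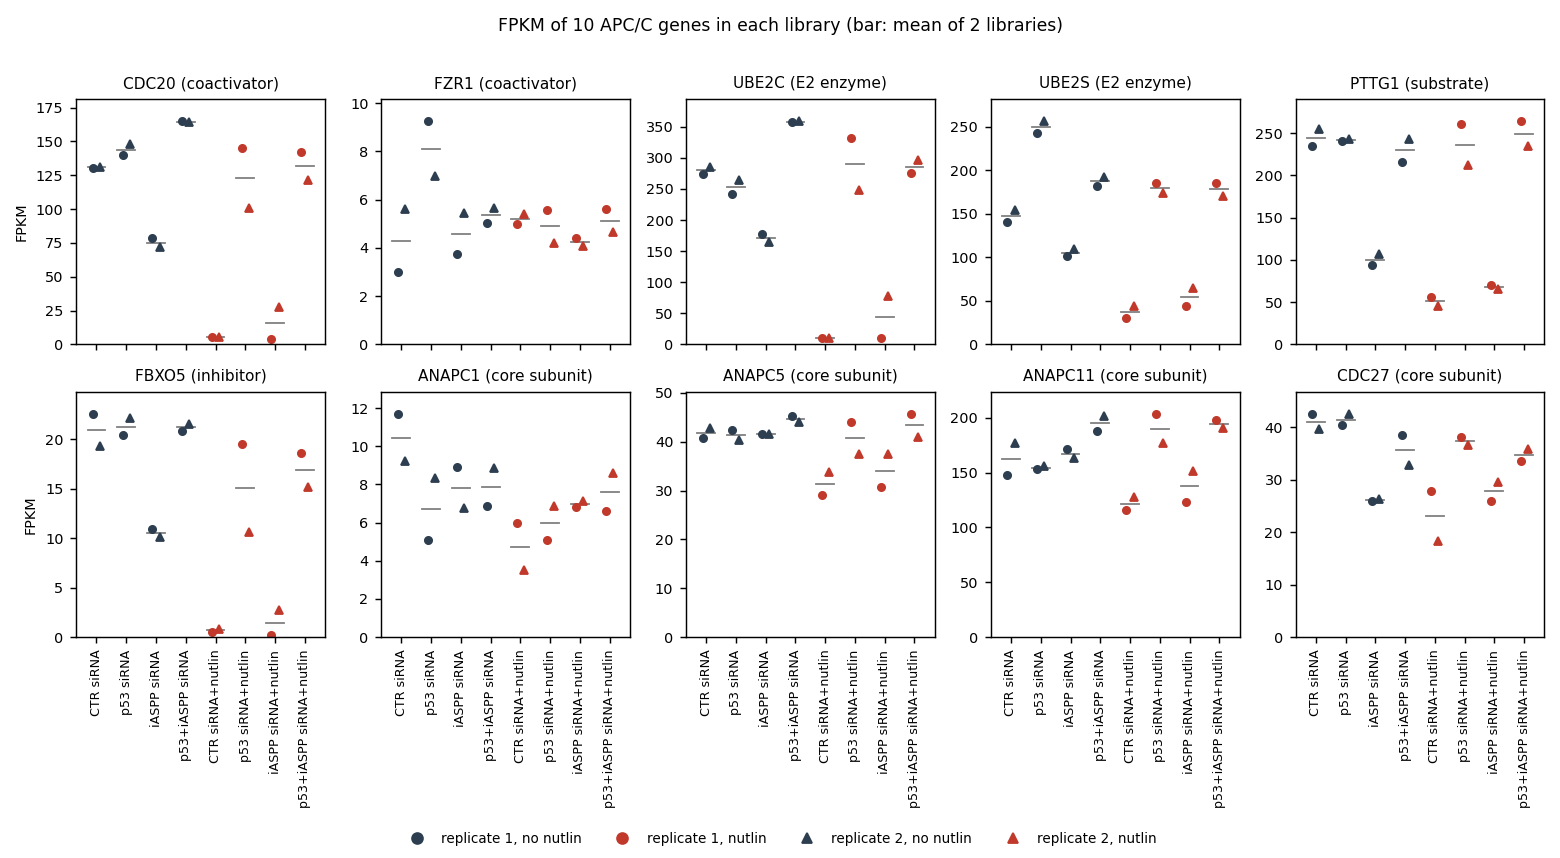
FPKM of each member (y axis, linear from 0, one scale per panel) in the 8 groups (x axis); circles are replicate 1, triangles replicate 2, red marks nutlin and grey bars the mean of 2 libraries. CDC20, UBE2C and FBXO5 drop close to the axis in CTR siRNA+nutlin and in iASPP siRNA+nutlin replicate 1, while FZR1 keeps between 2.98 and 9.25 FPKM.

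Nutlin given to cells with p53 and iASPP in place lowered 9 of the 10 transcripts, where 21.0% of all genes tested fell (2235 lower and 626 higher). After median-of-ratios scaling of the libraries 7 members fell, where 12.3% of all genes did (1312 lower and 1211 higher). The falls were deep for CDC20, UBE2C and FBXO5, intermediate for PTTG1 and UBE2S and shallow for the 4 core subunits. FZR1 did not pass the test. This comparison asks what p53 activation by nutlin does to the ligase and its partners.

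CDC20, the mitotic coactivator, was at 130 and 131 FPKM with CTR siRNA and at 5.17 and 5.51 FPKM with CTR siRNA+nutlin. The treated libraries lay far below the untreated ones, at a mean 4.08% of control, and CDC20 fell by 4.38 ± 0.55 on the log2 scale (adjusted p = 2.06e-04, 95% interval -5.59 to -3.17). FZR1, the G1 coactivator, was at 2.98 and 5.60 FPKM without nutlin and 4.98 and 5.40 with it. The 2 groups overlapped, and the log2 difference of 0.27 ± 0.24 had an interval from -0.26 to 0.80 (adjusted p = 0.432), which spans both a small fall and a rise. Without CTR siRNA replicate 1, the lowest FZR1 value of all libraries, the log2 difference turned to -0.094.

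UBE2C, the chain-initiating E2, was at 274 and 286 FPKM without nutlin and at 9.79 and 9.82 with it, a mean 3.50% of control. Its log2 difference of -4.70 ± 0.61 was the largest of the 10 members on this scale (adjusted p = 2.45e-04), while with a pseudocount of 0.1 it was -4.82 beside -4.81 for FBXO5. UBE2S, the chain-elongating E2, was at 141 and 154 FPKM without nutlin and at 30.8 and 43.9 with it. It fell by 1.97 ± 0.18 on the log2 scale to 25.3% of control (adjusted p = 3.42e-05), and both treated libraries lay below both controls.

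PTTG1, which encodes securin, the inhibitor of separase that CDC20-bound APC/C destroys, was at 235 and 254 FPKM without nutlin and at 56.2 and 45.6 with it. PTTG1 fell by 2.25 ± 0.13 (adjusted p = 5.47e-06), the smallest adjusted p of the members. FBXO5, the inhibitor, was at 22.5 and 19.3 FPKM without nutlin and at 0.502 and 0.825 with it. FBXO5 fell by 3.72 ± 0.41 (adjusted p = 8.73e-05) to 3.18% of control, and both treated libraries were under 1 FPKM, where the pseudocount of 1 compresses the difference.

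The core subunits were not constant. CDC27, which carries a docking surface for the coactivators, was at 42.6 and 39.6 FPKM without nutlin and at 27.8 and 18.4 with it, and fell by 0.83 ± 0.16 (adjusted p = 0.00367). ANAPC1, the largest scaffold subunit, was at 11.7 and 9.22 FPKM without nutlin and at 5.96 and 3.50 with it, and fell by 1.03 ± 0.27 (adjusted p = 0.0154), a call lost without CTR siRNA replicate 1 or CTR siRNA+nutlin replicate 2. ANAPC5, another scaffold subunit, went from 40.8 and 42.7 FPKM to 29.1 and 33.7, and ANAPC11, the RING subunit that binds the E2, from 147 and 177 to 116 and 128. Treated and untreated libraries did not overlap for any of the 4 core members. The log2 differences of ANAPC5 (-0.40 ± 0.13, adjusted p = 0.0388) and ANAPC11 (-0.41 ± 0.13, adjusted p = 0.0345) were close to the threshold. The median of all genes was -0.20 in this comparison, and after scaling both became -0.16 and lost the call (adjusted p = 0.379 and 0.346), while ANAPC1 (-0.82, adjusted p = 0.0444) and CDC27 (-0.59, adjusted p = 0.0210) kept it. The ANAPC5 call was also lost when any 1 of the 10 libraries of the close pairs was left out, and the ANAPC11 call without CTR siRNA replicate 2 or either CTR siRNA+nutlin library.

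**Figure D2:**
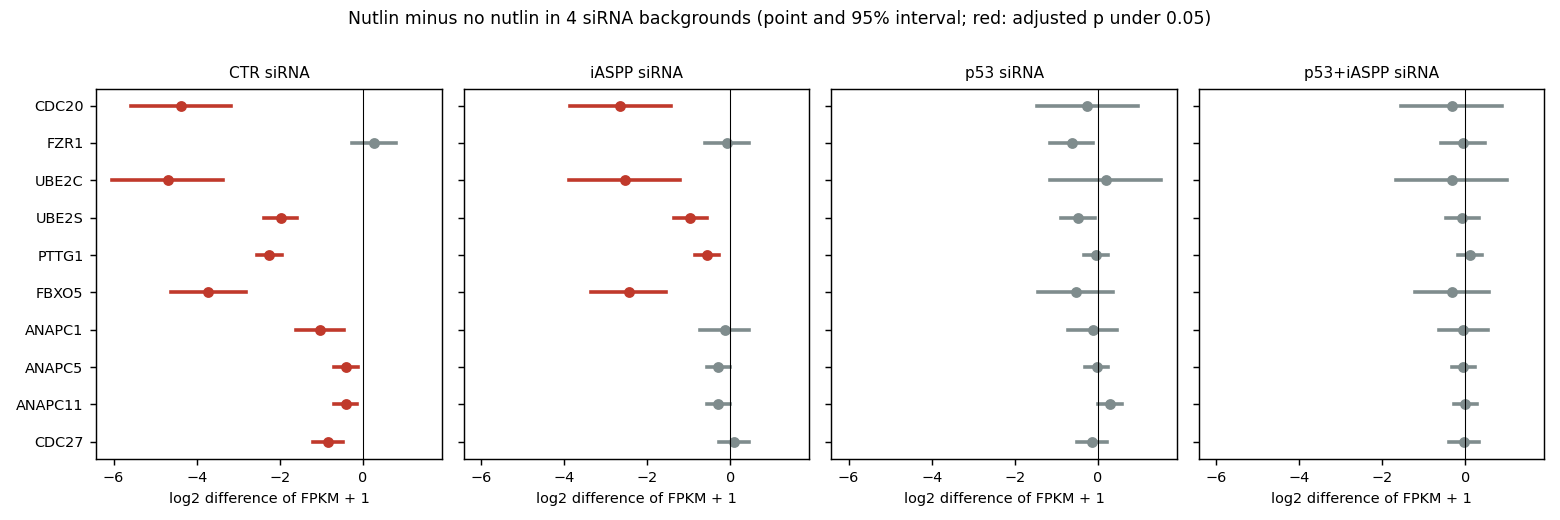
Log2 difference of FPKM + 1 between nutlin and no nutlin (x axis, point with 95% interval) for each member in cells with CTR, iASPP, p53 or p53+iASPP siRNA (panels); red marks an adjusted p under 0.05. Red points number 9 with CTR siRNA and 5 with iASPP siRNA, and 0 in both panels with p53 siRNA.

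Of the other 10 core subunits, 4 fell with nutlin in CTR siRNA cells, where 21.0% of all genes fell. They were ANAPC15 (-1.35 ± 0.23, adjusted p = 0.00146), ANAPC4 (-0.92 ± 0.26, adjusted p = 0.0247), CDC23 (-0.69 ± 0.15, adjusted p = 0.00573) and ANAPC10 (-0.67 ± 0.15, adjusted p = 0.00720). The remaining 6, namely ANAPC2, ANAPC7, ANAPC13, ANAPC16, CDC16 and CDC26, did not pass, with log2 differences from -0.26 to 0.39. Over all 14 core subunits 8 fell and 0 rose, with a median log2 difference of -0.40.

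The cofactors were then read relative to the core, by subtracting in each library the mean log2 level of ANAPC1, ANAPC5, ANAPC11 and CDC27. On that scale all 6 non-core members passed the test in CTR siRNA cells with nutlin, against 48.6% of all genes. CDC20 was lower by 3.71 ± 0.50 (adjusted p = 2.22e-04), UBE2C had a difference of -4.03 ± 0.55, FBXO5 of -3.05 ± 0.37, PTTG1 of -1.58 ± 0.15 and UBE2S of -1.31 ± 0.20. These 5 falls stand against 5.20% of genes lower on this scale. FZR1 was higher relative to the core, by 0.94 ± 0.28 (adjusted p = 0.0164), where 43.4% of all genes were higher. The FZR1 call was lost without CTR siRNA replicate 1 (0.56 ± 0.30, adjusted p = 0.169) or CTR siRNA+nutlin replicate 2 (0.78 ± 0.35, adjusted p = 0.118), and in FPKM itself FZR1 did not pass.

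**Figure D3:**
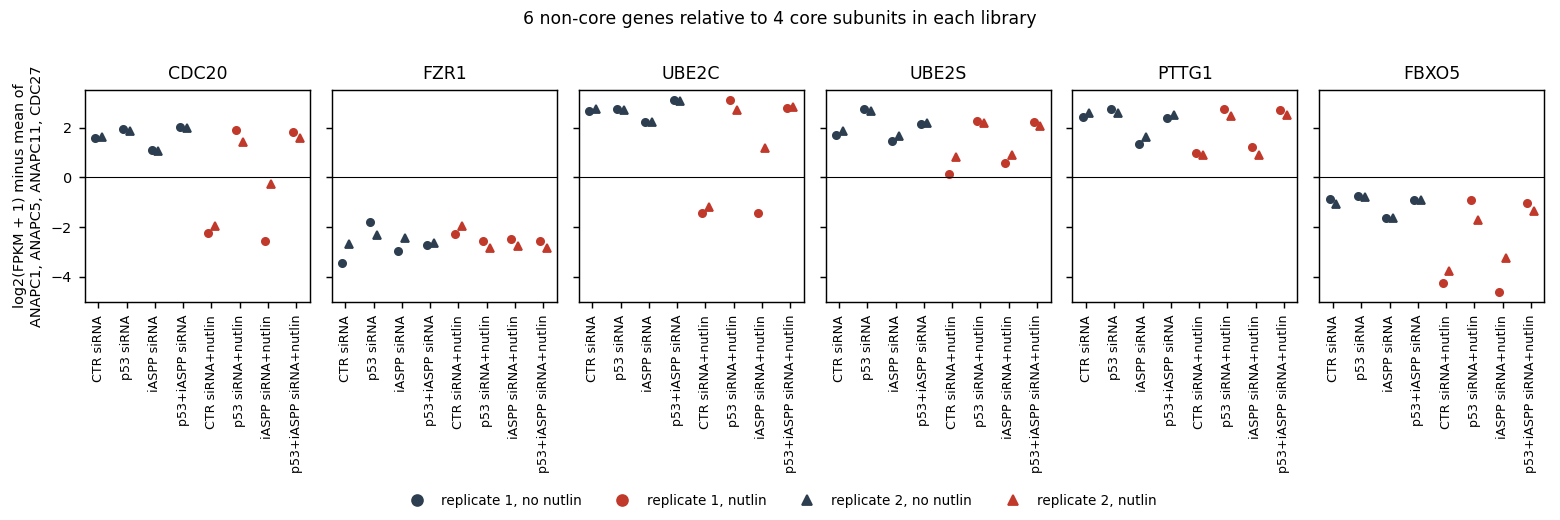
Log2(FPKM + 1) of each non-core member minus the mean of the 4 core members in the same library (y axis, one scale for all panels) in the 8 groups; circles are replicate 1, triangles replicate 2, red marks nutlin. CDC20 and UBE2C lie above 0 in every library without nutlin and below 0 in both CTR siRNA+nutlin libraries, while UBE2S and PTTG1 stay above 0 throughout.

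The coactivator transcripts were also set against each other in each library. CDC20 exceeded FZR1 43.7 and 23.5 times with CTR siRNA, and with CTR siRNA+nutlin the ratios were 1.04 and 1.02. The mean log2 ratio was 5.00 ± 0.64 (SD, n = 2) without nutlin and 0.04 ± 0.02 with it. In p53 siRNA+nutlin and p53+iASPP siRNA+nutlin the log2 ratio was 4.64 ± 0.08 and 4.69 ± 0.04, and the other groups without nutlin lay between 4.06 and 4.95. In iASPP siRNA+nutlin the libraries parted, at ratios of 0.930 and 6.87. No test of the ratio was made, and these values are a description.

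**Figure D4:**
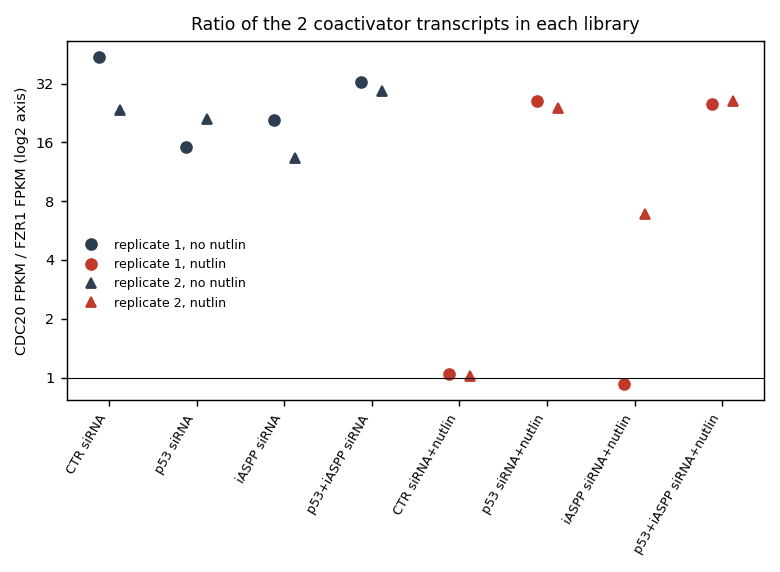
Ratio of CDC20 FPKM to FZR1 FPKM (y axis, log2 scale) in each library of the 8 groups; circles are replicate 1, triangles replicate 2, red marks nutlin. Both CTR siRNA+nutlin libraries and iASPP siRNA+nutlin replicate 1 sit near 1, iASPP siRNA+nutlin replicate 2 at 6.87, and all other libraries at 13.2 or more.

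Genes that work with the APC/C were counted from lists, beside the 21.0% of all genes that fell. In CTR siRNA cells with nutlin all 22 APC/C substrates listed fell, with a median log2 difference of -3.75, among them CCNA2 (cyclin A2, -4.60 ± 0.43, adjusted p = 3.51e-05), CCNB1 (cyclin B1, -4.30 ± 0.41, adjusted p = 4.04e-05), AURKA (Aurora A kinase, -3.53 ± 0.23) and GMNN (geminin, -1.90 ± 0.23). Of 8 spindle checkpoint genes and APC/C inhibitors 5 fell, with MAD2L1 (-3.83 ± 0.39) and BUB1B (-3.68 ± 0.31), both parts of the complex that holds CDC20 inactive. All 6 separase and cohesin genes fell, with ESPL1 (separase, -1.58 ± 0.17) an example. In the SCF ubiquitin ligase, a related cullin enzyme, 4 of 10 fell, with a median of -0.30 beside -0.20 over all genes; its scaffold CUL1 had a difference of -0.45 ± 0.12 (adjusted p = 0.0204), and SKP2, an F-box protein that CDH1-bound APC/C degrades and that is in both the SCF and the substrate list, of -2.02 ± 0.24. In bulk RNA, fewer cells in a phase and less RNA per cell cannot be told apart.

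After p53 siRNA nutlin moved 0 of the 10 transcripts past the threshold in limma, where 0.225% of all genes passed. At an unadjusted p under 0.05 there were 3 members and 1607 of 10662 genes. The 3 were UBE2S (mean 249.8 FPKM with p53 siRNA and 179.3 with p53 siRNA+nutlin), FZR1 (8.12 and 4.89) and ANAPC11 (154.5 and 190.2). For these genes the libraries with and without nutlin did not overlap. CDC20 was at 140 and 148 FPKM with p53 siRNA and at 145 and 101 with p53 siRNA+nutlin, a log2 difference of -0.25 ± 0.55 with an interval from -1.46 to 0.96. UBE2C was at 241 and 264 FPKM without nutlin and at 332 and 249 with it, PTTG1 at 241 and 244 without and 261 and 212 with it, and FBXO5 at 20.4 and 22.1 without and 19.5 and 10.6 with it. The lower nutlin value of CDC20, PTTG1 and FBXO5 was that of the diverging replicate 2, while replicate 1 of CDC20 lay inside the untreated range. The intervals of UBE2C (-1.15 to 1.53) and FBXO5 (-1.43 to 0.37) leave room for changes of more than 2-fold.

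The p53 siRNA effect within nutlin-treated cells was a rise of 7 of the 10 members, where 17.2% of all genes rose (1833 higher and 564 lower). After scaling 10.2% of all genes rose (1083 higher and 1012 lower) and 6 members did. CDC20 stood at 145 and 101 FPKM with p53 siRNA+nutlin against 5.17 and 5.51 with CTR siRNA+nutlin, a difference of 4.27 ± 0.55 (adjusted p = 3.73e-04). UBE2C rose by 4.74 ± 0.61 (adjusted p = 3.64e-04) and FBXO5 by 3.22 ± 0.41 (adjusted p = 3.34e-04). UBE2S, at 185 and 174 FPKM against 30.8 and 43.9, rose by 2.25 ± 0.18 (adjusted p = 3.36e-05), and PTTG1 rose by 2.19 ± 0.13 (adjusted p = 1.03e-05). Of the core, ANAPC11 at 204 and 177 FPKM against 116 and 128 rose by 0.64 ± 0.13 (adjusted p = 0.00463), a call lost without CTR siRNA+nutlin replicate 1. CDC27 rose by 0.70 ± 0.16 (adjusted p = 0.0114), which fell short after scaling (0.48, adjusted p = 0.0578) and without CTR siRNA+nutlin replicate 2 or p53 siRNA+nutlin replicate 1. This comparison uses the same CTR siRNA+nutlin libraries as the nutlin comparison, so the values of one bear on the other. All 22 listed substrates rose here, as did 6 of 8 checkpoint genes, 5 of 6 separase and cohesin genes, 3 of 10 SCF genes and 3 of the 10 other core subunits.

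The difference between the nutlin effects with and without p53 siRNA was tested itself. It passed for 6 members, where 7.65% of genes had a positive difference past the threshold (816 positive and 224 negative). After scaling it passed for 5 members and 5.16% of genes (550 positive and 381 negative). It was 4.89 ± 0.86 for UBE2C (adjusted p = 0.00685), 4.13 ± 0.78 for CDC20 (adjusted p = 0.00916), 3.19 ± 0.58 for FBXO5 (adjusted p = 0.00770), 2.21 ± 0.19 for PTTG1 (adjusted p = 5.57e-04), 1.50 ± 0.26 for UBE2S (adjusted p = 0.00642) and 0.70 ± 0.18 for ANAPC11 (adjusted p = 0.0320). The ANAPC11 value did not pass after scaling (0.48, adjusted p = 0.0979) nor without CTR siRNA replicate 2, p53 siRNA+nutlin replicate 1 or any 1 library of p53 siRNA, iASPP siRNA or CTR siRNA+nutlin. The difference was -0.90 ± 0.34 for FZR1 and did not pass (adjusted p = 0.112).

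Without nutlin, p53 siRNA moved 0 of the 10 members past the threshold, where 0.0375% of genes passed. At an unadjusted p under 0.05 in limma there were 3 members and 1379 of 10662 genes. UBE2S was at 243 and 256 FPKM with p53 siRNA and at 141 and 154 with CTR siRNA. The groups did not overlap, with a log2 difference of 0.76 ± 0.18 (adjusted p = 0.174), and it passed without the 3 diverging libraries (adjusted p = 0.0256), where 3.49% of all genes rose. FZR1 was at 9.25 and 6.98 FPKM against 2.98 and 5.60, the highest FZR1 levels of any group, with a difference of 0.82 ± 0.24 (adjusted p = 0.219). ANAPC1, the third member at the unadjusted threshold, was lower, at a mean of 6.70 FPKM against 10.46 with CTR siRNA (-0.60). Both p53 siRNA libraries of ANAPC1 lay below both controls. CDC20 (0.14 ± 0.55), UBE2C (-0.15 ± 0.61) and PTTG1 (-0.01 ± 0.13) did not pass either. The PTTG1 interval, from -0.31 to 0.28, is narrow beside its fall with nutlin.

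**Figure D5:**
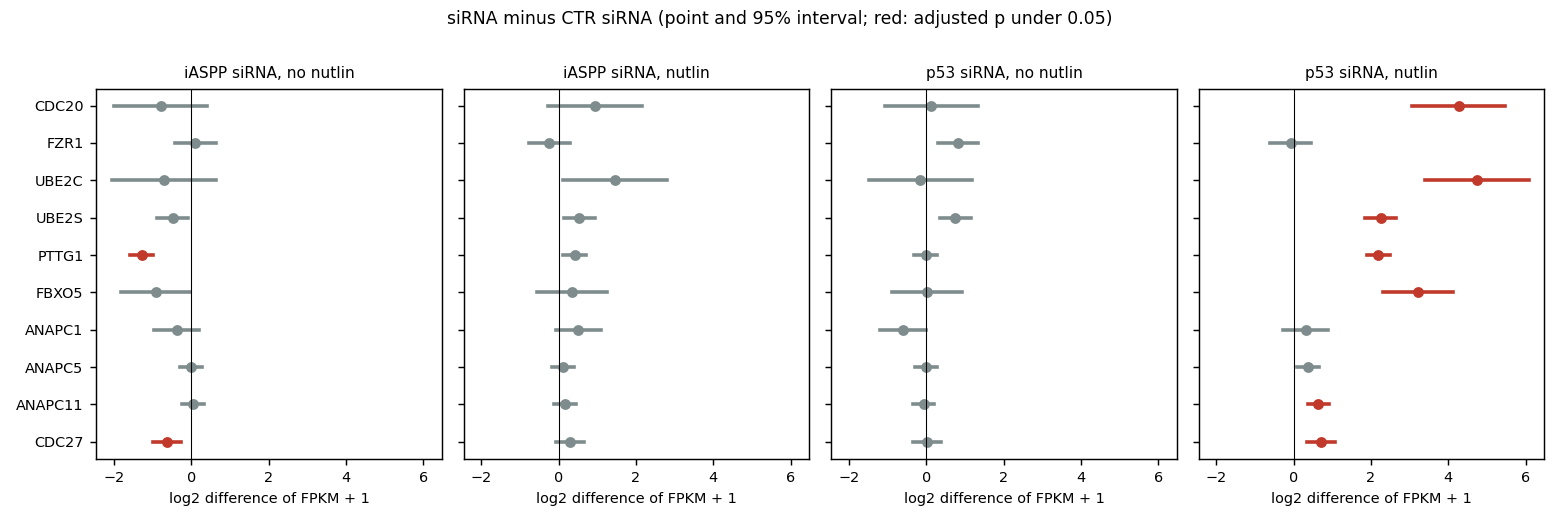
Log2 difference of FPKM + 1 from CTR siRNA (x axis, point with 95% interval) for each member with iASPP siRNA or p53 siRNA, without and with nutlin (panels); red marks an adjusted p under 0.05. Red points number 7 for p53 siRNA with nutlin and 2, PTTG1 and CDC27, for iASPP siRNA without nutlin.

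iASPP siRNA alone lowered 2 of the 10 members, PTTG1 and CDC27, where 5.11% of all genes fell (545 lower and 293 higher, and 470 lower and 395 higher after scaling). PTTG1 was at 93.7 and 107 FPKM with iASPP siRNA against 235 and 254 with CTR siRNA, and fell by 1.28 ± 0.13 (adjusted p = 0.00119) to 40.9% of control. CDC27 was at 25.9 and 26.4 FPKM against 42.6 and 39.6 and fell by 0.63 ± 0.16 (adjusted p = 0.0415). The CDC27 call was lost after scaling (-0.54, adjusted p = 0.0606) and when any 1 of the 8 libraries without nutlin was left out.

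In the same comparison the other regulators had lower values in both iASPP siRNA libraries without passing. CDC20 was at 78.8 and 71.8 FPKM against 130 and 131, 57.5% of control (-0.79 ± 0.55, adjusted p = 0.389). UBE2C was at 177 and 165 FPKM against 274 and 286 (-0.71 ± 0.61, adjusted p = 0.490). UBE2S was at 102 and 109 FPKM against 141 and 154 (adjusted p = 0.120), and FBXO5 at 11.0 and 10.1 against 22.5 and 19.3 (adjusted p = 0.178). No library of one group reached the range of the other for these 4 genes. Their standard errors take in the spread of the diverging pairs, which lie in other groups, and without the 3 diverging libraries CDC20 (adjusted p = 2.97e-04), UBE2C (3.48e-04), FBXO5 (0.00205) and UBE2S (0.0480) also passed, so that 6 members fell, where 18.5% of all genes tested did. ANAPC5 was at 41.6 and 41.6 FPKM against 40.8 and 42.7, and ANAPC11 at 171 and 163 against 147 and 177, each within the control range. CDKN1A was at 411 and 406 FPKM in these libraries against 70.7 and 72.7 with CTR siRNA (2.49 ± 0.38, adjusted p = 0.00647). Of the lists, 4 of 22 substrates, 1 of 8 checkpoint genes, 1 of 6 separase and cohesin genes and 1 of 10 other core subunits fell.

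With both siRNAs PTTG1 stood at 216 and 243 FPKM, 1 library inside the CTR siRNA range of 235 to 254 and 1 below it. Against iASPP siRNA alone PTTG1 rose by 1.19 ± 0.13 (adjusted p = 0.00291), the only member to do so, where 0.422% of all genes rose (45 higher and 59 lower, and 29 higher and 64 lower after scaling). This call was lost without iASPP siRNA replicate 1. CDC20 was at 165 and 165 FPKM with both siRNAs and UBE2C at 357 and 359, the highest group of each gene, with differences from iASPP siRNA of 1.12 ± 0.55 (adjusted p = 0.315) and 1.06 ± 0.61 (adjusted p = 0.393). Without the 3 diverging libraries 5 members rose, namely CDC20, UBE2C, UBE2S, PTTG1 and FBXO5, where 11.5% of all genes rose. Whether the p53 siRNA effect differs with iASPP siRNA was tested as an interaction, which passed for 0 members in limma, where 0.0281% of genes passed. At an unadjusted p under 0.05 there were 1 member and 1556 of 10662 genes. That member was PTTG1 (1.20 ± 0.19, adjusted p = 0.0636). Without the 3 diverging libraries the interaction passed for 4 (CDC20, UBE2C, PTTG1 and FBXO5), where 11.7% of all genes passed.

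In cells with iASPP siRNA nutlin lowered 5 members, where 3.90% of all genes fell: CDC20, UBE2C, UBE2S, PTTG1 and FBXO5. CDC20 was at 78.8 and 71.8 FPKM without nutlin and at 4.09 and 28.0 with it (-2.65 ± 0.55, adjusted p = 0.0228). UBE2C was at 177 and 165 FPKM without and at 10.1 and 77.5 with it (-2.54 ± 0.61, adjusted p = 0.0381). FBXO5 was at 11.0 and 10.1 FPKM without and at 0.204 and 2.69 with it (-2.45 ± 0.41, adjusted p = 0.0117). For these 3 genes the nutlin libraries differed several-fold from each other, though both lay below the untreated ones.

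UBE2S in the same comparison was at 102 and 109 FPKM without nutlin and at 44.2 and 65.1 with it (-0.96 ± 0.18, adjusted p = 0.0162). PTTG1 was at 93.7 and 107 FPKM without and at 69.8 and 65.3 with it (-0.56 ± 0.13, adjusted p = 0.0390), with replicates close. The higher CDC20, UBE2C and FBXO5 values belong to iASPP siRNA+nutlin replicate 2, which also had less CDKN1A (776 against 1656 FPKM), less MDM2 (121 against 150) and more PPP1R13L (1.30 against 0.807) than replicate 1. The part of these levels in the result was not tested. Without the 3 diverging libraries, which leaves only replicate 1 of iASPP siRNA+nutlin, the log2 differences were -3.90 for CDC20, -3.95 for UBE2C and -3.26 for FBXO5. Without replicate 1 of that group instead, they were -1.40, -1.13 and -1.64. The 5 calls were all lost without either iASPP siRNA library, and that of UBE2S without iASPP siRNA+nutlin replicate 1. The UBE2C call was lost when any 1 of the 10 libraries of the close pairs was left out, and the PTTG1 call when any 1 of the 8 libraries without nutlin or either iASPP siRNA+nutlin library was. With no filter on low values only UBE2S and FBXO5 passed, and PTTG1 also lost its call after scaling. FZR1 (-0.08 ± 0.24), ANAPC1 (-0.14 ± 0.27) and CDC27 (0.08 ± 0.16) did not pass, and of the lists 20 of 22 substrates, 5 of 8 checkpoint genes and 0 of the other 10 core subunits fell.

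For PTTG1 alone of the 10 members, the difference between the nutlin effects with and without iASPP siRNA passed the test in the fit over all 16 libraries. Its fall with nutlin was 2.25 ± 0.13 with CTR siRNA, starting from 235 and 254 FPKM, and 0.56 ± 0.13 with iASPP siRNA, starting from 93.7 and 107. The difference of 1.69 ± 0.19 passed (adjusted p = 0.0116), where 0.825% of all genes had a positive difference past the threshold (88 positive and 21 negative, and 50 of each after scaling), and was lost without either CTR siRNA library or without iASPP siRNA replicate 1. CDC20 (1.73 ± 0.78, adjusted p = 0.261) and UBE2C (2.16 ± 0.86, adjusted p = 0.210) had values as large with wider errors. Without the 3 diverging libraries, which leaves only replicate 1 of iASPP siRNA+nutlin, the differences were 0.47 for CDC20, 0.75 for UBE2C and 1.74 for PTTG1. Without replicate 1 instead, the CDC20 and UBE2C differences were larger, since the nutlin effects with iASPP siRNA were then only -1.40 and -1.13. That PTTG1 alone passed thus depended on the libraries kept. UBE2S (1.01 ± 0.26) and CDC27 (0.92 ± 0.23) both had an adjusted p of 0.0778.

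Between the nutlin-treated groups, iASPP siRNA changed 0 of the 10 members, where 0.769% of all genes passed (54 higher and 28 lower, and 26 higher and 55 lower after scaling). At an unadjusted p under 0.05 in limma there were 3 members and 1692 of 10662 genes. CDC20 was at 4.09 and 28.0 FPKM with iASPP siRNA+nutlin and at 5.17 and 5.51 with CTR siRNA+nutlin, so that the control lay between the 2 libraries. The CDC20 difference of 0.94 ± 0.55 (adjusted p = 0.434) became -0.32 without iASPP siRNA+nutlin replicate 2 and the other 2 diverging libraries, which leaves only replicate 1 of iASPP siRNA+nutlin. For FBXO5 the control also lay between the 2 libraries (0.204 and 2.69 against 0.502 and 0.825). UBE2C was above both control libraries in each, barely in replicate 1 (10.1 and 77.5 against 9.79 and 9.82). PTTG1 (69.8 and 65.3 against 56.2 and 45.6) and UBE2S (44.2 and 65.1 against 30.8 and 43.9) were higher in both libraries, with differences of 0.41 ± 0.13 (adjusted p = 0.177) and 0.53 ± 0.18 (adjusted p = 0.190). Without iASPP siRNA+nutlin replicate 1 instead, the differences were 2.19 for CDC20, 2.86 for UBE2C and 0.81 for UBE2S, all higher with iASPP siRNA. The sign of the CDC20 difference thus depended on which library was left out.

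In p53+iASPP siRNA cells nutlin moved 0 of 10 members in limma, where 0% of genes passed, and 0 members and 753 genes had an unadjusted p under 0.05. CDC20 was at 165 and 165 FPKM without nutlin and 142 and 122 with it (-0.32 ± 0.55), which did not pass (adjusted p = 0.914). PTTG1 was at 216 and 243 without and 264 and 234 with it (0.12 ± 0.13). Against iASPP siRNA+nutlin 6 members rose, where 10.8% of all genes rose (1148 higher and 514 lower, and 923 higher and 647 lower after scaling): CDC20 (3.45 ± 0.55, adjusted p = 0.00237), UBE2C (3.28 ± 0.61, adjusted p = 0.00519), FBXO5 (3.08 ± 0.41, adjusted p = 0.00106), PTTG1 (1.87 ± 0.13, adjusted p = 1.24e-04), UBE2S (1.71 ± 0.18, adjusted p = 4.23e-04) and ANAPC11 (0.51 ± 0.13, adjusted p = 0.0212). The ANAPC11 call was lost without iASPP siRNA+nutlin replicate 1 or either p53+iASPP siRNA+nutlin library. In p53-silenced cells the addition of iASPP siRNA moved 0 members without nutlin, where 0.947% of genes passed, and 0 with it, where 0.00938% passed. At an unadjusted p under 0.05 in limma the counts were 2 and 0 members, beside 1764 and 495 genes. The 2 were UBE2S (243 and 256 FPKM with p53 siRNA, 182 and 193 with both, -0.41 ± 0.18, adjusted p = 0.291) and ANAPC11 (153 and 156 against 188 and 202, 0.33 ± 0.13, adjusted p = 0.226).

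Across the 8 groups the levels of CDC20 ran from p53+iASPP siRNA (164.7 FPKM) at the top to CTR siRNA+nutlin (5.34) at the bottom. Neighbours in the order p53 siRNA, p53+iASPP siRNA+nutlin, CTR siRNA and p53 siRNA+nutlin overlapped, as did iASPP siRNA+nutlin and CTR siRNA+nutlin, while iASPP siRNA (75.3) stood apart from its neighbours. UBE2C had the same top and bottom groups (357.8 and 9.80 FPKM), and FBXO5 ran from 21.3 with p53 siRNA to 0.664 with CTR siRNA+nutlin. For PTTG1 the 5 groups other than iASPP siRNA, iASPP siRNA+nutlin and CTR siRNA+nutlin overlapped with their neighbours between 229 and 249 FPKM, and these 3 stood apart in that order at 100.1, 67.6 and 50.9. UBE2S was highest with p53 siRNA (249.8 FPKM) and lowest with CTR siRNA+nutlin (37.3). FZR1 stood apart only with p53 siRNA (8.12 FPKM), with the other 7 groups overlapping in turn between 4.24 and 5.34. ANAPC5 ranged from 31.4 to 44.7 FPKM and all its neighbouring groups overlapped, and ANAPC11 from 121.8 to 195 FPKM.

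The genes whose log2 level was most like that of CDC20 over the 8 group means were FOXM1 (Pearson r = 0.998), CDCA8 (0.998), BUB1B (0.998), PRC1 (0.998) and NDC80 (0.998). For FZR1 they were FKBP2 (0.948), POMT1 (0.944), ZSCAN16 (0.942), NDUFS8 (0.937) and RBM6 (0.934). Among members the r of CDC20 was 0.995 with UBE2C, 0.994 with FBXO5, 0.970 with UBE2S and 0.948 with PTTG1, and 0.262 with FZR1. With the core subunits it was 0.975 for ANAPC5, 0.869 for ANAPC11, 0.836 for CDC27 and 0.602 for ANAPC1. These values describe 8 points that share libraries and depth, and FZR1 varied little beyond its replicate spread, so its list rests on a narrow range.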

How the data were processed

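Messenger RNA of 16 HCT116 libraries was sequenced, and the values are FPKM as deposited by the authors. Per the submitters' processing notes the authors used edgeR, version not given, and the build GRCh38 (hg38). For the aligner, counting program, annotation and use of strand, the source texts at hand give nothing (not given in the sources used here). Each column was matched to a sample by its title, and 0 value columns were unmatched. No scaling was added in the main analysis.

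Members were rows with a listed symbol. The members and gene lists were chosen with earlier results of these data known. The text names all members, the other core subunits, a few fixed examples of each list, CDKN1A, MDM2 and PPP1R13L, copies found by symbol, and the 5 genes most like CDC20 and FZR1. The level of the p53 transcript is not reported here.

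limma 3.58.1 in R 4.3.3 was fitted to log2(FPKM + 1) of 10662 genes whose mean was 1 FPKM or higher, as 8 group means with 8 residual degrees of freedom and an intensity trend, and was tested on simulated data. Interactions are differences of differences in that fit. Alternatives were a pseudocount of 0.1, no filter, median-of-ratios scaling, a replicate block, each library left out, the 3 diverging libraries left out, and the 5 close pairs averaged. Exact counts of reads were not recovered, so depth limits are unknown beyond the relative depths given. Positions and overlaps come from GENCODE 29, and promoter sequences from RefSeq on GRCh38.p14.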

Additional observations from a re-analysis of the deposited data

Results flagged for a closer look

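In 7 cases the effect of nutlin differed between siRNA backgrounds by a test of the difference itself (limma interaction on log2(FPKM + 1), Benjamini-Hochberg over 10662 genes). Between p53 siRNA and CTR siRNA cells the nutlin effect differed by 4.13 for CDC20, 4.89 for UBE2C, 1.50 for UBE2S, 2.21 for PTTG1, 3.19 for FBXO5 and 0.70 for ANAPC11, each higher with p53 siRNA. Between iASPP siRNA and CTR siRNA cells it differed by 1.69 for PTTG1, less negative with iASPP siRNA. Over all genes, 7.65% and 0.825% had a positive difference past the threshold in these comparisons, in that order. In both PTTG1 cases the nutlin libraries of the silenced group lay above both CTR siRNA+nutlin libraries.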

How the results depend on the processing

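With each close pair averaged to 1 library, the number of members past the threshold was 0 in every comparison, where it had been 9 for nutlin in CTR siRNA cells, 5 for nutlin in iASPP siRNA cells, 7 for p53 siRNA with nutlin, 2 for iASPP siRNA without nutlin, 1 and 6 for p53 siRNA in iASPP siRNA cells without and with nutlin, 6 and 1 for the nutlin by p53 siRNA and nutlin by iASPP siRNA interactions, and 6 relative to the core. The spread then came from the 3 diverging pairs alone. Without the 3 diverging libraries the spread came from the close pairs alone. The count then rose for iASPP siRNA without nutlin and for p53 siRNA in iASPP siRNA cells without nutlin. It also rose for the p53 siRNA by iASPP siRNA and nutlin by iASPP siRNA interactions, as the number over all genes did in each. It became 1 each, from 0, for nutlin in p53 siRNA cells, p53 siRNA without nutlin, iASPP siRNA with nutlin and iASPP siRNA in p53 siRNA cells without nutlin, where 2.61%, 7.89%, 15.5% and 11.9% of all genes passed. With no filter on low values the count was 2 for nutlin in iASPP siRNA cells, where 306 of 17696 genes passed. It was 1 for iASPP siRNA without nutlin, where 563 genes passed. After median-of-ratios scaling it was also 1 for the latter, where 865 of 10662 genes passed, and the cause was not tested. Leaving out 1 library at a time changed the number of members past the threshold both up and down for nutlin in iASPP siRNA cells and for iASPP siRNA without nutlin. The same held for p53 siRNA in iASPP siRNA cells without nutlin and the nutlin by iASPP siRNA interaction. For iASPP siRNA with nutlin and the p53 siRNA by iASPP siRNA interaction the number rose in some fits. In each of these comparisons the number over all genes changed widely too. Such a fit holds 1 library in the group of the library left out. In some of these fits that group was not among the groups compared. The member counts of these fits are not given. Relative to the core only the FZR1 call was lost when 1 library was left out. The FZR1 difference with nutlin in CTR siRNA cells ran from -0.094 to 0.64 and reversed without CTR siRNA replicate 1, and the CDC20 difference for iASPP siRNA with nutlin ran from -0.32 to 2.19 and reversed without iASPP siRNA+nutlin replicate 2, as it did without all 3 diverging libraries (-0.32). With FPKM + 1 the CDC20 to FZR1 log2 ratio was 4.71 in p53+iASPP siRNA, 4.38 in p53 siRNA+nutlin and 4.44 in p53+iASPP siRNA+nutlin. Of the 37 member calls, 0 were lost with a pseudocount of 0.1, 4 with no filter, 6 after scaling, 0 without the 3 libraries and 15 without some single library.

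Over all genes, the counts without the 3 diverging libraries were 4382 for nutlin in CTR siRNA cells (2861 in the main analysis), 2952 for nutlin in iASPP siRNA cells (555), 2882 for iASPP siRNA without nutlin (838), 3602 for p53 siRNA in iASPP siRNA cells with nutlin (1662) and 2606 for the nutlin by p53 siRNA interaction (1040), and with close pairs averaged they were 4, 5, 3, 1 and 1. Deviations of same-numbered libraries correlated at -0.03 to 0.30 (median 0.02) over 28 pairs of groups. The replicate numbers thus showed little pairing in most pairs of groups, while in 3 pairs the correlation was above 0.1. With the replicate number as a block the member counts were 9 for nutlin in CTR siRNA cells, 4 for nutlin in iASPP siRNA cells (PTTG1 no longer passing), 7 for p53 siRNA with nutlin, 2 for iASPP siRNA without nutlin and 6 relative to the core, and the block changed no other member call. The counts over all 10662 genes with the block were 2861, 462, 2414, 875 and 5125, in that order. Scaling was not run for the change relative to the core. Depth was estimated only as a ratio between replicates, in a search that took replicate 2 as the deeper. No counting interval can therefore be given for low values such as FZR1 or FBXO5 with nutlin.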
